A study of Mus musculus with 8 samples.

Results

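The genes described here are 9 genes of pulmonary surfactant and of the alveolar type II cell, namely Sftpa1, Sftpb, Sftpc, Sftpd, Abca3, Lamp3, Napsa, Slc34a2 and Lpcat1. They were taken by gene symbol from the annotated matrix of the arrays, which holds 20920 gene symbols, and they were measured by 15 probes, 6 of the genes by a single probe. Lung RNA was compared between 4 wild-type and 4 Scgb3a2-transgenic male C57BL/6 mice of 8 to 10 weeks, none of which had been treated. The transgene was a mouse Scgb3a2 cDNA placed behind the human surfactant protein C (SP-C) promoter, followed by an intron and a poly A site of SV40, and by the methods it was injected into C57BL/6NCr eggs. The line came from a single founder, so that effects of the insertion site and of the transgene cannot be told apart. Wild-type mice lacked the transgene and were otherwise described in the same way. Each array carried the RNA of 1 whole lung in Cy5 and, in Cy3, a pool with equal amounts of RNA from every sample. No array had the dyes swapped. Every value below is a log2 ratio of lung over pool unless stated otherwise, and it is compared between lungs for the same probe, never between probes.

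Alveolar type II cells make surfactant, a film of phospholipid and protein that lowers surface tension and keeps the alveoli open. Lipids and the hydrophobic surfactant proteins are packed into lamellar bodies and secreted into the alveolar fluid, where the collectins SP-A and SP-D also bind microbes. SP-C is made by no other adult cell type to a comparable degree, and for this reason its promoter is used to drive transgenes in type II cells.

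The transcription factor NKX2-1 is known to bind surfactant gene promoters through a core of the letters CTCAAG. RefSeq promoter windows on the GRCm38.p6 build were at hand for 6 of the 9 genes (Sftpa1, Sftpb, Abca3, Lamp3, Slc34a2 and Lpcat1), and the 250 bases before each start were searched for this core on both strands. Sftpa1 held 1 match and Sftpb held 2, all on the strand of the gene, and the other 4 windows held none. Of all 32851 promoter windows of the same length, 13.3% held a match and 0.998% held 2 or more. The windows with a match are printed because they belong to a collectin and to a hydrophobic surfactant protein, and capitals mark the core. They are chr14:41131538-41131787 on the plus strand for Sftpa1 and chr6:72304360-72304609 on the plus strand for Sftpb.
Sftpa1: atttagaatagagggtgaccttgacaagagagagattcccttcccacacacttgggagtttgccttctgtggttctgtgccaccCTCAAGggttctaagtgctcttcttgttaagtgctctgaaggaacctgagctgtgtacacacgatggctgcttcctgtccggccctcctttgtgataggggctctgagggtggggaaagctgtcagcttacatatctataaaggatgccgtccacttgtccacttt
Sftpb: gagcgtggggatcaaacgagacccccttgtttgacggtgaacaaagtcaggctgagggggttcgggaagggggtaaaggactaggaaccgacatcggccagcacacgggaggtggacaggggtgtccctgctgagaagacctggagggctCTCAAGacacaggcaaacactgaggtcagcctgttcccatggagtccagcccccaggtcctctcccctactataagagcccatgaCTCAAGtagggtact
In Sftpa1 the core spans bases 166 to 161 before the start. In Sftpb the cores span bases 100 to 95 and 15 to 10 before the start. A match of letters is a description of the sequence and shows no binding, and none of these arrays measured binding.

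Over the 8 arrays, 32257 to 34709 probes were well above background in the lung channel, 1.72% to 6.46% of the spots carried an outlier flag and were left out, and no spot was saturated. The 4 slides paired 1 lung of each genotype and were scanned on 2 days, with replicates 1 and 3 of wild-type and 1 and 4 of transgenic on the first day. Of the 15 probes of the 9 genes, 14 were well above background on all 8 arrays. The remaining probe, the dimmest of 4 for Abca3, was well above background on no array and was not tested. Outlier flags removed at least 1 array for 8 of the 14 tested probes. Scgb3a2 itself was higher in transgenic lungs, with a log2 fold change of 0.88 (standard error, SE, 0.24, unadjusted p = 0.00329, adjusted p = 1 by limma). Its log2 ratio ran from -0.56 to 0.58 in wild-type and from 0.47 to 1.26 in transgenic lungs.

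By the brightest probe of each gene, the mean of the transgenic lungs lay below that of the wild-type lungs for 9 of 9 genes. The median log2 fold change was -0.50, from -0.75 for Sftpa1 to -0.01 for Abca3, and the median over all 32645 probes tested was 0.001. None of the genes passed the test after adjustment for multiple tests. At an unadjusted p under 0.05 by limma, 4 of the 14 probes were lower, those of Sftpa1, Sftpd, the second probe of Lamp3 and the second probe of Slc34a2, where 0.974% of all probes tested were lower at this threshold. After Benjamini-Hochberg adjustment 0 of the 14 passed, as did 0% of all probes, and the adjusted p was 1 for each of the 14. The genotypes did not overlap for 1 of the 14 probes, the second probe of Slc34a2, against 0.904% of all probes that were lower without overlap. That probe had values on 3 lungs of each genotype, which separate more easily than 4 against 4. The least exact permutation p is 0.1 for 3 against 3 and 0.0286 for 4 against 4. In RNA of whole lung, fewer type II cells and less RNA per cell cannot be told apart. With limma's array weights the median log2 fold change was -0.16, and without wild-type replicate 3 or without transgenic replicate 1 it was -0.28 and -0.29. The count of probes under the unadjusted threshold was 2 without wild-type replicate 3 (1.99% of all probes, in either direction), 2 without transgenic replicate 1 (3.29%) and 7 without wild-type replicate 4 (3.66%). Blocking on the slide gave 6, against 3.71% of all probes, and the median log2 fold change was -0.47.

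**Figure D1:**
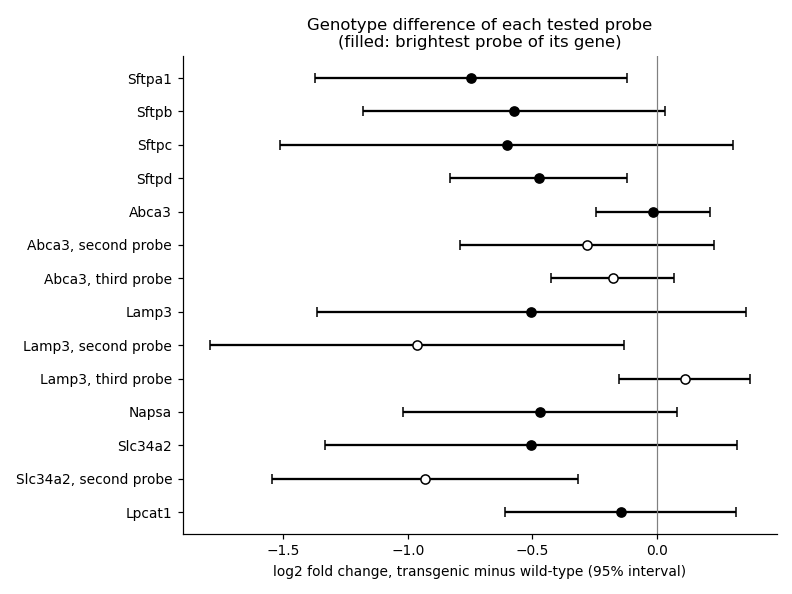
Log2 fold change of transgenic against wild-type lungs with its 95% interval for the 14 tested probes of the 9 genes, with filled points for the brightest probe of a gene and open points for its other probes. All points but that of the third probe of Lamp3 (0.11) lie below 0, and the intervals of Sftpa1, Sftpd, the second probe of Lamp3 and the second probe of Slc34a2 exclude 0.

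Among the collectins, Sftpa1, which encodes surfactant protein A, had log2 ratios of 0.80, 0.62, 1.66 and -0.05 in wild-type replicates 1 to 4 and of -0.24, 0.12, 0.30 and -0.13 in transgenic replicates 1 to 4. Wild-type replicates 1 to 3 lay above every transgenic lung, and wild-type replicate 4 lay among them. Wild-type lungs averaged 0.76 ± 0.71 (SD, n = 4), whereas the transgenic lungs averaged 0.01 ± 0.24 (SD, n = 4). The difference between genotypes was -0.75 (SE 0.29, unadjusted p = 0.0238, adjusted p = 1 by limma), or 1.68-fold lower with a 95% interval from 1.09 to 2.59. An exact two-sided permutation test gave p = 0.0857, and 4 mice against 4 allow no less than 0.0286. The unadjusted call by limma was lost without wild-type replicate 3 (log2 fold change -0.44), transgenic replicate 1 (-0.66) or transgenic replicate 4 (-0.70).

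Sftpd encodes surfactant protein D, the other collectin. Its log2 ratio was 0.63, 0.41, 0.74 and 0.05 in the wild-type and -0.03, 0.14, 0.16 and -0.33 in the transgenic lungs, replicates 1 to 4 in each case. Again only wild-type replicate 4 lay among the transgenic lungs. Transgenic minus wild-type gave -0.47 (SE 0.16, unadjusted p = 0.0133 and adjusted p = 1 by limma, with an exact permutation p of 0.0857), or 1.39-fold lower with a 95% interval from 1.09 to 1.78. Sftpa1 and Sftpd are near neighbours in the mouse genome, and in the reference annotation Mbl1, which encodes another collectin, and the pseudogene Gm7920 lie between them.

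Of the hydrophobic surfactant proteins, SP-B is needed to spread the lipid film and SP-C stabilizes it. Sftpb had log2 ratios of 0.86, 1.31 and 0.06 in wild-type replicates 2 to 4, with replicate 1 left out for a flag, and of -0.26, 0.47, 0.42 and 0.04 in the transgenic lungs. Wild-type replicates 2 and 3 were the highest lungs and wild-type replicate 4 lay below transgenic replicates 2 and 3. The transgenic mean minus the wild-type mean was -0.57 (SE 0.27, unadjusted p = 0.0617 and adjusted p = 1 by limma, with an exact permutation p of 0.2).

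Sftpc had log2 ratios of 2.34, 1.47, 3.09 and 1.22 in the wild-type lungs and of 0.79, 1.74 and 1.74 in transgenic replicates 1 to 3, with replicate 4 left out for a flag. Wild-type replicates 1 and 3 were the highest, transgenic replicate 1 was the lowest, and in between transgenic replicates 2 and 3 lay above wild-type replicates 2 and 4. The difference between genotypes was -0.60 (SE 0.41, 95% interval -1.51 to 0.30, unadjusted p = 0.17 and adjusted p = 1 by limma, with an exact permutation p of 0.314). All 7 values lay above 0, although the pool was made from the same lungs, so that distance from 0 cannot be read as a level for this probe. Blocking on the slide gave a difference of -0.25, and without wild-type replicate 3 or transgenic replicate 1 it was -0.25 and -0.29.

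The channels were set side by side for the brightest probe of each gene, each channel quantile-normalized between arrays on its own, a step added after the ratios had been seen. For Sftpc the normalized log2 signal of the lungs was 17.41, 17.21, 17.41 and 17.55 in wild-type and 17.19, 17.63 and 17.46 in transgenic replicates 1 to 3. The log2 signal of the pool, the same RNA on every array, was 15.43, 15.62, 14.78 and 16.20 on the wild-type arrays and 16.68, 15.75 and 15.69 on the transgenic arrays. The range of the Sftpc signal was 1.90 in the pool channel and 0.44 in the lung channel. For 99.4% of the probes tested the range in the pool channel was smaller than for Sftpc, and the median range in that channel over all probes was 0.53. In the lung channel alone the log2 fold change of Sftpc was 0.03 (unadjusted p = 0.853, adjusted p = 1 by limma), opposite in sign to that of the ratio. The raw lung signal of Sftpc, flagged spots included, ran from 128934 to 192968, the highest of these genes, with Sftpb next at up to 76162. Quantile normalization gives every array the same set of values, which can narrow the range of the brightest probes. Its part in the small range and difference of Sftpc was not tested, so these values do not show that Sftpc was unchanged.

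For the other surfactant protein genes the larger range was that of the lung channel. Sftpa1 spanned 1.26 in the lung and 0.35 in the pool channel, Sftpb 0.97 and 0.41, and Sftpd 0.95 and 0.39. In the lung channel alone their transgenic mean minus the wild-type mean was -0.46, -0.31 and -0.33 (unadjusted p = 0.0616, 0.22 and 0.0921 by limma). The unadjusted calls of Sftpa1 and Sftpd were thus lost in the lung channel. Over the 9 genes, 8 were lower in transgenic lungs in this channel with a median of -0.33. The pool channel, with the same RNA on every array, gave a median of 0.03 with 5 genes higher on the transgenic arrays. These were Sftpa1 (0.19), Sftpb (0.15), Sftpc (0.53), Sftpd (0.11) and Lpcat1 (0.03), while Abca3, Lamp3, Napsa and Slc34a2 were lower (-0.13 to -0.04). Over all probes the median of this difference was -0.04. The log2 ratios of Sftpa1, Sftpb, Sftpc and Sftpd thus include a difference between genotypes in the pool channel, whose cause was not tested. Slc34a2 had a range of 1.95 in the lung and of 1.14 in the pool channel, wider than for 95.3% of the probes tested.

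**Figure D2:**
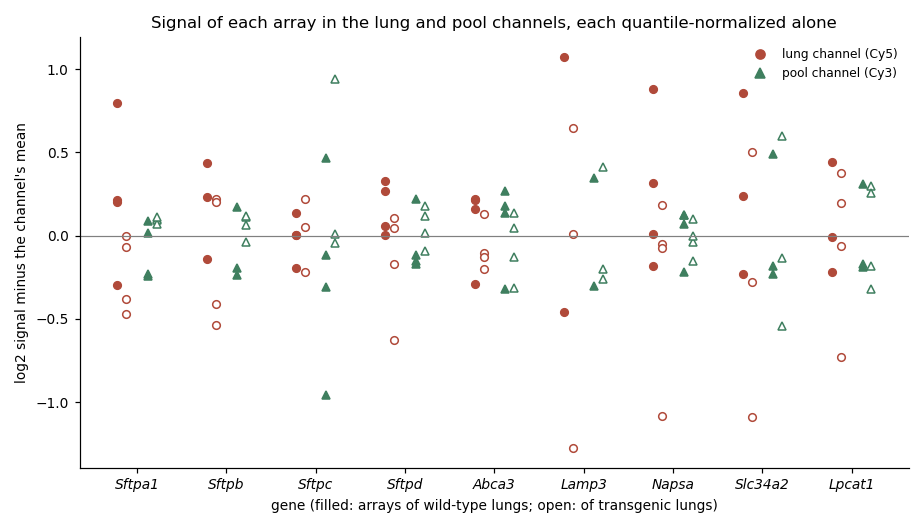
Log2 signal of each array minus its mean, for the lung channel (circles) and the pool channel (triangles), each quantile-normalized alone, for the brightest probe of each gene, with filled points for arrays of wild-type lungs and open points for those of transgenic lungs. Sftpc spans 1.90 in the pool channel and 0.44 in the lung channel, while Sftpa1 spans 0.35 and 1.26.

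Lamellar bodies are filled and limited by membrane proteins. ABCA3 carries phospholipid into them, and the brightest Abca3 probe had log2 ratios of 0.38, 0.28, 0.41 and 0.33 in wild-type and 0.51, 0.35, 0.34 and 0.14 in transgenic lungs. Transgenic lungs were both the highest and the lowest. Transgenic minus wild-type gave -0.01 (SE 0.10, 95% interval -0.24 to 0.21, unadjusted p = 0.894 by limma, with an exact permutation p of 0.857). The other tested probes of Abca3 had log2 fold changes of -0.28 (unadjusted p = 0.251) and -0.18 (unadjusted p = 0.144 by limma), and the sign of the brightest probe turned under 6 of the other settings tried.

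LAMP3 lies in the limiting membrane of lamellar bodies. The brightest Lamp3 probe had values on 5 arrays, with -1.05 and -0.21 in wild-type replicates 1 and 2 and -1.90, -0.74 and -0.77 in transgenic replicates 1, 3 and 4. The wild-type and transgenic lungs overlapped, and the log2 fold change was -0.50 (SE 0.38, unadjusted p = 0.214 by limma, with an exact permutation p of 0.6). Blocking on the slide gave -0.85, which rests on the 1 slide with a value in both genotypes, and without wild-type replicate 2 it was -0.08. The second probe had -0.21, 0.50 and 1.31 in wild-type replicates 1 to 3 and -1.05, -0.16 and -0.08 in transgenic replicates 1, 2 and 4, with a log2 fold change of -0.96 (SE 0.37, unadjusted p = 0.0274 and adjusted p = 1 by limma, with an exact permutation p of 0.3, where no less than 0.1 is possible). This unadjusted call was lost without wild-type replicate 2 (-0.98), wild-type replicate 3 (-0.57) or transgenic replicate 1 (-0.65). The third, dim probe had a log2 fold change of 0.11 (unadjusted p = 0.375 by limma), so that the probes of Lamp3 did not share a direction.

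Napsin A is an aspartic protease that takes part in cutting the precursors of SP-B and SP-C. Napsa had log2 ratios of 0.14, 0.15, 0.69 and -0.42 in wild-type and of -0.97, 0.12, -0.18 and -0.29 in transgenic lungs. The groups overlapped, since wild-type replicate 4 was the second lowest lung. The transgenic mean minus the wild-type mean was -0.47 (SE 0.25, 95% interval -1.02 to 0.08, unadjusted p = 0.0879 and adjusted p = 1 by limma, with an exact permutation p of 0.229).

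Slc34a2 encodes the sodium and phosphate cotransporter of the type II cell surface, which takes up phosphate from the alveolar fluid. Its brightest probe had log2 ratios of 0.59, 1.17 and -0.59 in wild-type replicates 1, 3 and 4 and of -0.38, 0.04 and -0.02 in transgenic replicates 1, 2 and 4. Wild-type replicate 4 was the lowest of these lungs, and the log2 fold change was -0.50 (SE 0.37, unadjusted p = 0.201 and adjusted p = 1 by limma, with an exact permutation p of 0.5). A fit that took the slide as a block gave -1.07 (unadjusted p = 0.000202, adjusted p = 0.942 by limma), a value from the 2 slides with both genotypes, which are those of the first scan day. Without wild-type replicate 3 it was -0.12 and without wild-type replicate 4 it was -0.99. The second probe had values of 1.31, 0.66 and 1.66 in wild-type replicates 1 to 3 and of -0.19, 0.61 and 0.42 in transgenic replicates 1, 2 and 4. Here every wild-type value lay above every transgenic value, with wild-type replicate 4 left out for a flag. The difference between genotypes was -0.93 (SE 0.27, unadjusted p = 0.00741, adjusted p = 1 by limma), or 1.91-fold lower with a 95% interval from 1.25 to 2.92, and the exact permutation p was 0.1, the least that 3 lungs against 3 allow.

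Lpcat1 encodes the acyltransferase that makes the dipalmitoyl lecithin of surfactant. It had log2 ratios of -0.01, 0.65 and -0.29 in wild-type replicates 1, 3 and 4 and of -0.34, 0.12, -0.02 and 0.14 in transgenic lungs. Wild-type replicate 3 stood above the rest, and the other lungs of the genotypes were mixed. Transgenic minus wild-type gave -0.15 (SE 0.21, 95% interval -0.61 to 0.32, unadjusted p = 0.499 by limma, with an exact permutation p of 0.714), and without wild-type replicate 3 it was 0.12.

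**Figure D3:**
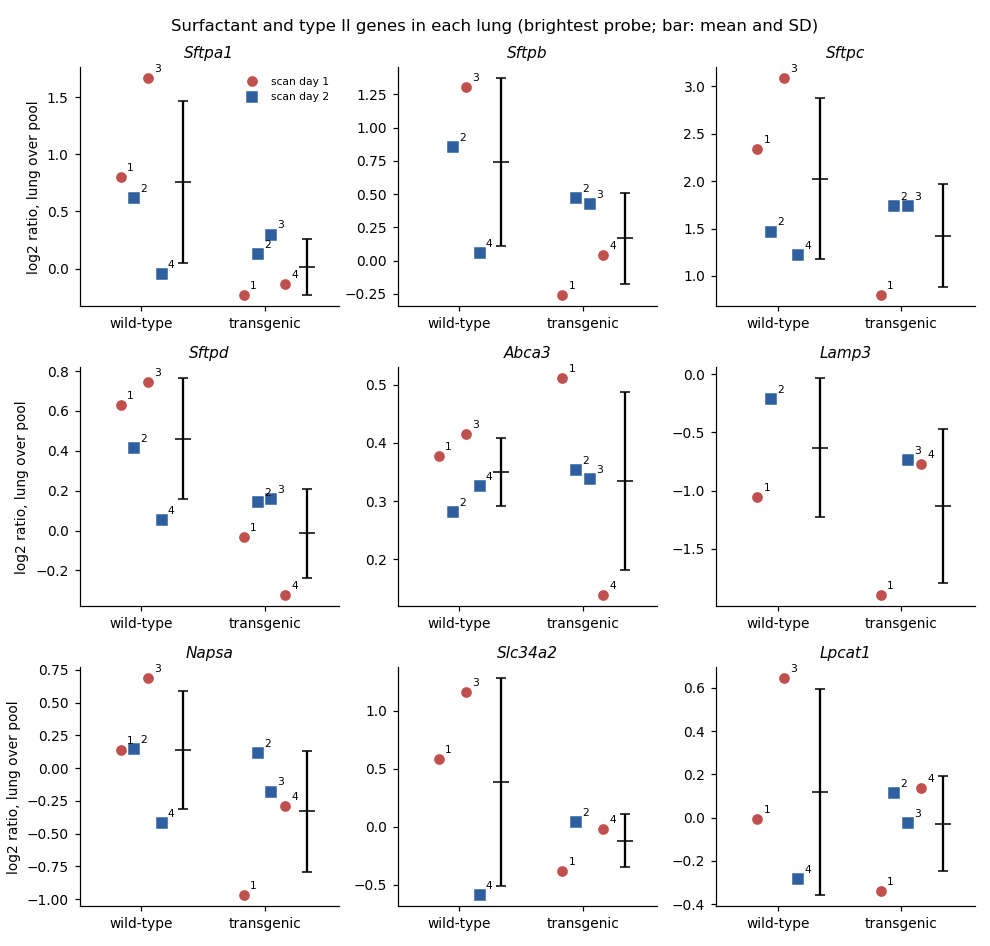
Log2 ratio of lung over pool for the brightest probe of each of the 9 genes in every lung with an unflagged value, numbered by replicate, with circles and squares for the first and second scan day and bars for the mean and SD of each genotype. Wild-type replicate 3 is the highest lung for 7 of the 9 genes, and the genotypes overlap in every panel.

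The log2 ratios of the 9 genes differed between lungs of the same genotype, and mostly in the same lungs. Wild-type replicate 3 was the highest lung for 7 of the 9 genes, with a mean deviation from the genes' own means of 0.81. Transgenic replicate 1 was the lowest for 6 genes, with a mean deviation of -0.57. Wild-type replicate 4 lay below the mean in 8 of 8 genes, by -0.36 on average, lower than transgenic replicates 2, 3 and 4 at -0.01, -0.02 and -0.21. Their median SD within a genotype was 0.48, against 0.18 over all probes tested. The SD of Sftpc was larger than that of 99.6% of the probes, with 99.5% for Slc34a2 and for Lamp3, 99.0% for Sftpa1, 98.5% for Sftpb and 98.1% for Napsa. Lpcat1 and Sftpd stood at 93.3% and 81.5%, and Abca3 at 17.1%. For Sftpc and Abca3 the pool channel had a wider range than the lung channel, 1.90 against 0.44 and 0.59 against 0.51. The spread of their ratios thus includes that of the pool channel, whose cause was not tested. In the lung channel alone wild-type replicate 3 was not the highest lung for Sftpc, at 17.41 against 17.63 in transgenic replicate 2. Transgenic replicate 1 was the lowest there as well, at 17.19. Transgenic replicate 1, the lowest of the lungs for 6 genes, also had the highest Scgb3a2 ratio, 1.26, while the highest lung for 7 genes, wild-type replicate 3, had the highest Scgb3a2 ratio of its genotype, 0.58.

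**Figure D4:**
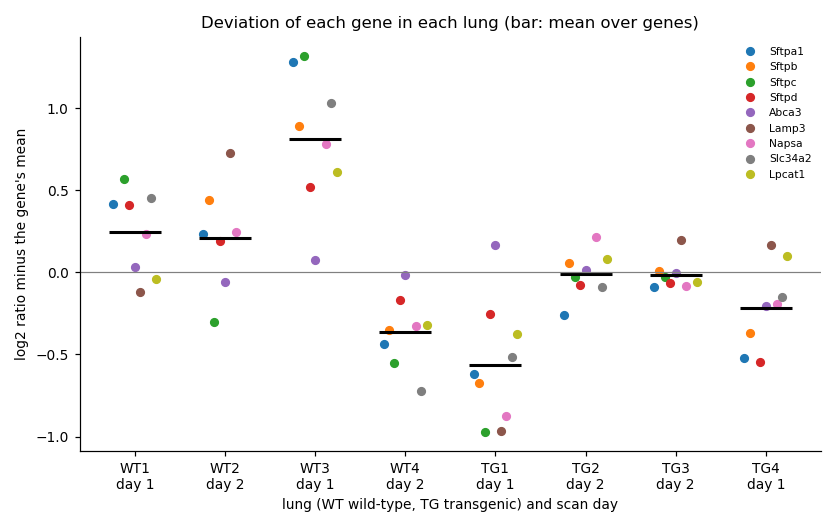
Log2 ratio of each of the 9 genes minus that gene's mean over the lungs, by lung, with points coloured by gene and a bar for the mean over genes. The bar stands at 0.81 in wild-type replicate 3, at -0.57 in transgenic replicate 1 and at -0.36 in wild-type replicate 4.

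The genotype difference was also taken within each day of scanning. Among the lungs of the first day the transgenic mean was lower for 9 of 9 genes, with a median difference of -1.04. Among those of the second day it was lower for 4 of 9 genes, with a median of 0.04. Sftpc differed by -1.92 on the first day and by 0.40 on the second, and Sftpa1 by -1.42 and -0.07. For Sftpc most of the difference on the first day lay in the pool channel. Its pool signal was 15.43 and 14.78 with wild-type replicates 1 and 3 and 16.68 with transgenic replicate 1. The lung signals of these arrays were 17.41, 17.41 and 17.19. Outlier flags left Sftpb, Sftpc, Lamp3, Slc34a2 and Lpcat1 with a single lung of a genotype on at least 1 of the days, which for Sftpc was transgenic replicate 1 on the first day. A limma fit with an interaction of genotype and scan day was chosen because of these day differences in the ratios, so it is no independent evidence for them. It gave an unadjusted p under 0.05 for 6 of the 9 genes, against 2.40% of all probes with an estimate, and an adjusted p under 0.05 for 0 of the 9, against 0% of all probes. Where a genotype had a single lung on a day, the spread in this fit came from the other lungs. Each day held 2 lungs of each genotype, so that the scan day and the lungs scanned on it cannot be told apart. By slide, the transgenic lung was lower for 7 of 7 genes (replicate 4 against wild-type replicate 3), for 7 of 8 (replicate 1 against 1), for 4 of 6 (replicate 2 against 2) and for 0 of 7 (replicate 3 against wild-type replicate 4). The medians of these slides were -1.07, -0.91, -0.15 and 0.26.

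**Figure D5:**
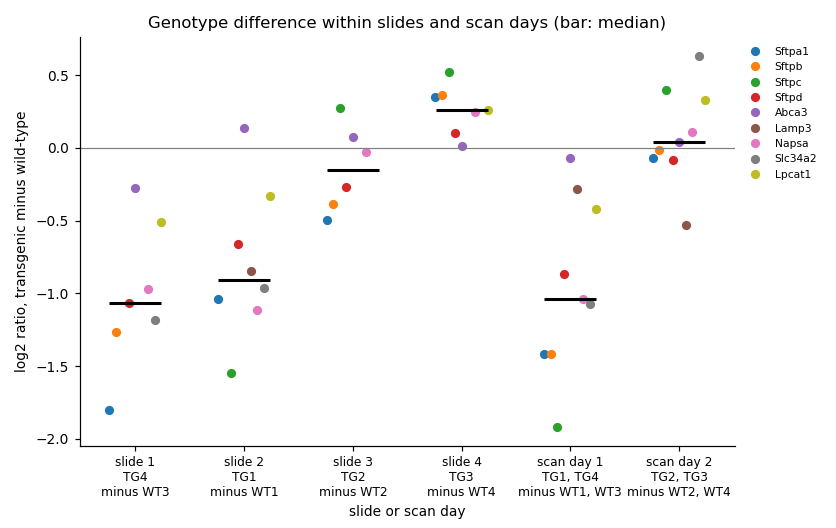
Difference in log2 ratio between transgenic and wild-type lungs for each of the 9 genes within each slide (1 lung of each genotype) and each scan day (2 lungs of each genotype), with a bar for the median. The median is -1.04 on the first scan day and 0.04 on the second.

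The genes whose ratio was most like that of Sftpc were sought among 25884 probes with a value on the 7 arrays that have one for Sftpc. They were Gkn2 (r = 0.987), 2610301B20Rik (0.984), Olfr1412 (0.983), Pts (0.982) and Akap11 (0.982). Of the members, Slc34a2 came closest with Pearson r of 0.978 and 0.963 for its probes over 5 arrays, followed by Sftpa1 with 0.932 and Lpcat1 with 0.924. Napsa, Sftpd and Sftpb had 0.896, 0.894 and 0.890, whereas the probes of Abca3, from the brightest on, had -0.07, 0.32 and 0.74, and those of Lamp3 had 0.46, 0.80 and 0.13. They were computed over the 4 to 7 arrays that had both values. These ratios share the pool channel of the same arrays, and for Sftpc that channel held the larger spread.

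Other genes of the surfactant pathway were counted from lists written for this comparison. In these and the lists below each gene was represented by its brightest tested probe alone. Some genes had more tested probes, such as Chka with 4 and Fasn with 2, whose values are not given. At an unadjusted p under 0.05 by limma, 2.09% of all probes tested passed in either direction. Of 8 transcription factors of the type II cell, 5 were lower and 3 higher in transgenic lungs, and only Klf5 passed, with a log2 fold change of -0.35 (unadjusted p = 0.00921). Nkx2-1, the factor whose core letters are marked above, had a log2 fold change of -0.01 (SE 0.11). Of 7 genes that process surfactant proteins or sort cargo to lamellar bodies, 6 were lower and 0 passed, the largest difference being -0.33 for Nedd4l, a ubiquitin ligase. Of 11 tested genes of lipid synthesis 7 were lower and 2 passed, the choline kinase Chka at -0.22 (unadjusted p = 0.0497) and the fatty acid synthase Fasn at -0.52 (unadjusted p = 0.0184 by limma), which had values on 2 lungs of each genotype. Of 7 genes of surfactant clearance and sensing, 3 were lower, 4 were higher and 0 passed, with Prdx6, a peroxiredoxin with phospholipase activity, at -0.38. None of them passed after adjustment (adjusted p = 1 by limma).

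Other markers of the type II cell were lower for 8 of 9 genes tested, with a median log2 fold change of -0.34. At an unadjusted p under 0.05 by limma 2 of the 9 passed, against 2.09% of all probes tested in either direction. The lysozymes Lyz1 and Lyz2 passed the unadjusted threshold, with log2 fold changes of -1.21 (unadjusted p = 0.00449, on 4 wild-type and 2 transgenic lungs) and -0.76 (unadjusted p = 0.0298, adjusted p = 1 by limma), and Lyz2 is also made by macrophages. The mean deviation of these markers was highest in wild-type replicate 3 (0.75) and lowest in transgenic replicate 1 (-0.57), the same lungs as for the 9 genes. The markers were chosen with earlier results of these data known, so they are no independent evidence.

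Markers of other cells moved with the lungs in several ways, and their part in the result was not tested. Their lists were likewise chosen with earlier results known. Of 5 heart muscle markers 4 were lower, with a median of -0.34, and Myh6, a cardiac myosin, passed the unadjusted threshold at -0.62 (unadjusted p = 0.0136). Their mean deviation ran from -0.11 to 0.60 in wild-type and from -0.57 to 0.16 in transgenic lungs, with wild-type replicate 3 the highest and transgenic replicate 1 the lowest, as for the surfactant genes. Of 5 adipocyte markers 5 were lower, with a median of -0.48 and Adipoq, which encodes adiponectin, at -0.89 (unadjusted p = 0.00485). Their mean deviation ran from 0.01 to 0.59 in wild-type and from -0.96 to 0.08 in transgenic lungs. Type I cell markers were lower for 5 of 7 genes with 0 past the threshold (Ager at -0.27), and they too were lowest in transgenic replicate 1 (-0.64). Club cell markers were lower for 3 of 5 with 0 past (Scgb3a1 at -0.71), ciliated cell markers for 2 of 4 with 0 past (Tekt1 at 0.11) and red cell markers for 3 of 5 with 0 past (Hba-a1 at -0.51). Endothelial markers were higher for 4 of 6, with Kdr at 0.63 and Tek at -0.44 past the threshold, and lowest in wild-type replicate 3 (-0.43). Lymphocyte markers were higher for 5 of 7 with Ms4a1 past at 0.63, macrophage markers for 3 of 6 with Siglecf past at 0.28, and fibroblast markers for 3 of 5 with Col1a1 and Col3a1 past, both at 0.36. All of them had an adjusted p of 1 by limma.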

How the data were processed

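RNA of 8 whole mouse lungs, grouped by the genotype in the sample labels, was measured on 2-colour Agilent arrays against a pool. The authors deposited scanner output with raw and processed intensity values of both channels (Agilent Feature Extraction 10.10.1.1 in the file headers, 11.0.1.1 in the submitters' processing notes) and a matrix of log2 ratios, processed lung over processed pool, of GeneSpring. Labels and methods differ on the extraction kit. The methods name a t-test and no background correction, filter or adjustment for multiple tests.

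The median signals were corrected with normexp (offset 50, fitted on unflagged spots). Control and outlier-flagged spots were left out, a flag on the spot or on its local background counting. Log2 ratios were normalized by loess with a span of 0.3, array by array, then averaged over the spots of a probe, in R 4.3.3 (limma 3.58.1, and for reading the files version 1.17.8 of data.table). A probe was tested when well above background in the lung channel on at least 4 of 8 arrays with at least 2 values per genotype. Genotypes were compared by limma's moderated test, two-sided, with Benjamini-Hochberg adjustment over 32645 probes, and exact permutation of the genotypes for single probes. Samples labelled as biological replicates were treated as separate mice, and their number limits the precision. The fit was tested on simulated data. In the order used here the brightest probe of a gene (highest mean log2 intensity over both channels) comes first.

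Every one of the 9 genes is named by all its probes. Of each companion list the genes past the unadjusted threshold are named, or where none passed the one with the largest difference, together with the 5 genes most correlated with Sftpc. The 9 genes and the 15 companion lists were chosen with earlier results of these data known. The companion lists hold type II factors, processing and sorting, lipid synthesis, clearance, other type II markers and markers of type I, club, ciliated, macrophage, endothelial, lymphocyte, fibroblast, red, heart muscle and fat cells. Symbols of 933 probes that the matrix leaves unnamed came from RefSeq by accession. Promoter windows are from RefSeq on GRCm38.p6. Plots were made in Python 3.11.15 with matplotlib 3.10.9. Another background correction, normalization, channel, filter, block or test and the loss of each lung were tried as alternatives.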

Additional observations from a re-analysis of the deposited data

Results flagged for a closer look

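The third, dim probe of Lamp3 had a wild-type lung apart from the rest. Wild-type replicate 1 stood at a log2 ratio of 0.37, against 0.14, 0.14 and 0.15 in replicates 2 to 4, a gap of 0.935 of the group's whole range, which is past Dixon's 95% critical value. It was the only one past that value among 16 groups of 4 arrays, and chance puts about 5% of groups past it. Transgenic replicate 1 had 0.14 on this probe, and the difference between genotypes of 0.11 was smaller than the SD of the transgenic lungs, 0.20.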

How the results depend on the processing

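The median log2 fold change of the 9 genes stayed below 0 under all 24 other settings, from -0.65 without wild-type replicate 4 to -0.16 with array weights, and it was -0.28 without wild-type replicate 3 and -0.29 without transgenic replicate 1. The number of lower genes was 7 to 9, and the count of probes with an adjusted p under 0.05 was 0 throughout. The count of probes under the unadjusted threshold, 4, where 2.09% of all probes passed in either direction, became 2 on the Agilent processed signals (2.56% of all probes), with flagged spots kept (2.02%) and with array weights (3.93%). It became 1 on the authors' matrix (3.1%), in the lung channel alone (0.922%) and by the methods' t-test (2.65%). It became 6 with median-centring (1.84%) and when the slide was a block (3.71%), and 5 with normexp fitted on all spots (1.2%) or flags of the spot only (1.25%). It was 2 to 7 with 1 lung left out (1.54% to 3.66%). The cause was not tested. Sftpa1, Sftpb, Sftpd, Lamp3, Napsa and Slc34a2 kept their sign under every setting, but with 1 lung left out their log2 fold changes ran from -1.01 to -0.44, -0.91 to -0.29, -0.61 to -0.37, -0.93 to -0.08, -0.65 to -0.25 and -0.99 to -0.12 in this order, and that of Sftpc from -0.87 to -0.25. Abca3 turned to 0.051 both on the authors' matrix and on Agilent's processed signals, to 0.033 with normexp fitted on all spots, to 0.037 with flags of the spot only (a setting chosen after seeing the data), and with 1 lung left out it ran from -0.073 to 0.052, above 0 without wild-type replicate 3 (0.0076) or transgenic replicate 4. Lpcat1 turned to 0.042 with array weights, and with 1 lung left out it ran from -0.35 to 0.12. Sftpc turned to 0.030 in the lung channel alone.

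Replicate numbers did not pair the lungs. Same-numbered lungs had correlations of 0.32, 0.25, -0.08 and -0.21 of their deviations from the genotype means. The other lungs that shared a slide had 0.30 (wild-type replicate 3 with transgenic 4) and 0.07 (wild-type replicate 4 with transgenic 3). Pairs that shared neither a number nor a slide ran from -0.32 to 0.21. A replicate block gave a median of -0.47, with 6 probes under the unadjusted threshold against 2.71% of all probes. With that block Slc34a2 stood at -0.20 and Sftpc at -0.87. With 4 mice per genotype and up to 4 of the 15 probes flagged on an array, differences near the spread between lungs, and larger ones, may have been missed. No probe of the main fit passed after adjustment, and neither did Scgb3a2 at a log2 fold change of 0.88. The smallest difference that could have been detected was not estimated.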
